A study of Rattus norvegicus with 18 samples.

Results

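Astrocyte identity genes are transcripts by which astrocytes, the main glial cells of grey matter, are commonly recognised. A list of 36 gene symbols was matched, ignoring case, to the symbols of a hippocampal RNA sequencing table of 20909 genes, and 35 of them were measured. The list gives the symbols in capitals (GFAP, AQP4, ALDH1L1 and others), and they are written below in the rat form. Values for Hepacam, an adhesion protein of astrocyte endfeet, were not analysed here. The rule matches symbols and uses no measured value, but the list was drawn up with earlier results of these data known. The animals were 18 adult male rats with 1 whole-hippocampus library each, 6 per group. The bHR line (bred High Responder) and the bLR line (bred Low Responder) were selected over generations for high or low exploratory locomotion, and the rats used were of generation 37. The bIR rats (bred Intermediate Responder) came from crossing bHR with bLR animals of that generation, and their locomotor response lay between those of the parent lines. The bHR and bLR rats were killed at P160 to P167 (postnatal days) and the bIR rats earlier, at P126 to P134, so for every comparison with bIR, line and age cannot be told apart. A behavioural maze test was run at P160 to P167 in bHR and bLR and at P65 to P75 in bIR. Age at testing and time since testing therefore also go with line in these comparisons. No treatment is named in the labels, and rats are called below by their titles, for example HR_2, IR_149 or LR_48.

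Astrocytes take up glutamate and potassium released by active neurons, move water across their endfeet on blood vessels, and pass small molecules to one another through gap junctions. They also supply lipoprotein particles and secreted proteins that act on synapses. Gfap, an intermediate filament protein, is used as a marker of hippocampal astrocytes and rises when they become reactive. Several of the listed genes are shared with neural stem cells of the dentate gyrus (Gfap, Sox9, Pax6, Fabp7, Vim) or with other cells (Apoe and Clu in particular), so the list is not exclusive to one cell type.

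Libraries held 31.1 to 66.6 M reads, and the lowest read number behind any of the 35 genes in any rat was 340, so counting error was small for all of them. Mean depth was lower in bHR (39.2 M) than in bIR (45.5 M) and bLR (48.7 M), and fits with the log2 read total as a covariate are given below. Levels are given as FPM, mapped fragments scaled by the authors to a common library depth, and differences as log2 differences between group means with their standard error (SE). The defining markers Gfap and Aqp4 were well above 0 in every rat. Neuronal, oligodendrocyte, microglial, endothelial, ependymal and choroid plexus markers were also present in every library, as whole hippocampus holds all these cells. In such bulk tissue, fewer cells of a type and less RNA per cell cannot be told apart. Ttr, which marks the choroid plexus, exceeded 11 on the log2 scale in HR_38, IR_213, IR_248 and IR_261. LR_20 stayed below this limit, at 10.7. Its mean log2 level over the choroid plexus markers, 5.06, was above that of IR_248, 4.93.

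The comparison of bHR with bLR asks whether the hippocampal astrocyte transcripts differ between the selected lines. Among the 35 genes, 33 had a higher mean in bHR than in bLR, with a median log2 difference of 0.15, while 49.5% of all genes were above 0 and the median over all genes was -0.0017. Most of these differences were small against the spread between rats. With limma and Benjamini-Hochberg adjustment over all 20909 genes, 1 of the 35 was higher in bHR at an adjusted p under 0.05 (Chrdl1), 0 were lower, and 34 did not pass. Of all genes measured, 0.445% passed in either direction and 0.191% were higher in bHR. At an unadjusted p under 0.05, 10 of the 35 were higher and 0 lower in bHR, beside 4.21% of all genes that were higher and 5.16% that were lower. These 10 genes were Chrdl1, Lcat, Sox9, Gfap, Slc1a2, Aqp4, Kcnj16, Kcnj10, Acsbg1 and Glul. The genes of the list vary together from rat to rat, as described below, so the 33 are not 33 separate observations.

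**Figure D1:**
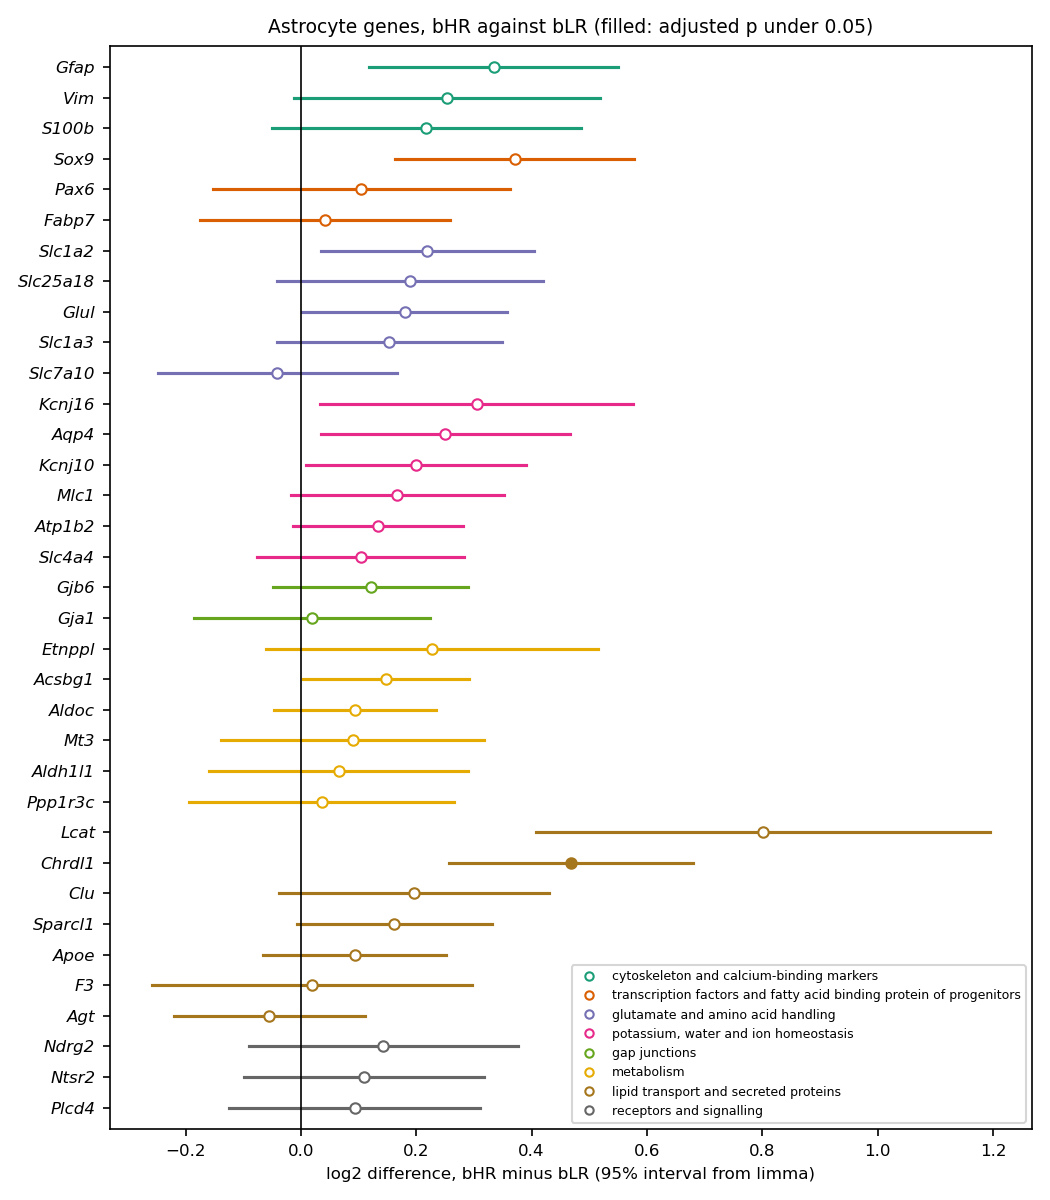
Log2 difference between bHR and bLR (x axis, with its 95% interval from limma) for the 35 measured astrocyte genes, coloured by role; 6 rats per line. Chrdl1, drawn as the filled point, is the gene that passed an adjusted p under 0.05, and Agt and Slc7a10 are the 2 genes with a point below 0.

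Secreted proteins and lipid carriers held the gene that passed and the gene with the largest difference. Chrdl1 encodes chordin-like 1, a secreted antagonist of bone morphogenetic proteins that astrocytes release and that acts on the glutamate receptor composition of synapses. It was measured at 20.8, 25.6 and 30.4 FPM (lowest, median and highest of 6 rats) in bHR, 16.3, 18.6 and 20.6 in bIR, and 15.0, 18.4 and 21.0 in bLR, 6 rats each. Of the 6 bHR rats, 5 were above every bLR rat, and HR_38, at 20.8, was just below LR_48, at 21.0. The bHR mean was 24.98 ± 3.51 FPM and the bLR mean 18.1 ± 2.47 (SD, n = 6), a 1.38-fold difference (log2 difference 0.47, SE 0.10, limma adjusted p = 0.0401). This call stood close to the threshold. Without HR_2, HR_10, HR_22, HR_34, IR_213, IR_293, LR_8, LR_20, LR_32 or LR_44, each left out in turn, the limma adjusted p of Chrdl1 rose above 0.05, to between 0.0502 and 0.109, while the log2 difference was at least 0.41 in every such fit.

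Lcat encodes lecithin-cholesterol acyltransferase, the enzyme that esterifies cholesterol on lipoprotein particles, which astrocytes secrete in the brain. Its levels were 28.5, 34.4 and 58.9 FPM in bHR, 17.9, 27.5 and 36.1 in bIR, and 13.1, 22.2 and 24.7 in bLR. Every bHR rat was above every bLR rat, which held for 1 of the 35 genes and for 0.407% of all genes. HR_2 was far above the other bHR rats and LR_16 far below the other bLR rats. The log2 difference was 0.80 (SE 0.19, 1.74-fold), and it missed the threshold with limma (adjusted p = 0.0675). Without HR_26 or without IR_149, Lcat passed (limma adjusted p = 0.0420 and 0.0427).

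The regions before the starts of these genes are printed for Chrdl1 and Lcat, as the genes with the smallest p, for Gfap as the best-known marker, and for Gja1 as an abundant gene whose lines hardly differed. Each is the 250 bases before the RefSeq transcription start in the GRCr8 assembly, 5′ to 3′ on the strand of the gene: Chrdl1 at chrX:111789662-111789911 (minus strand), Lcat at chr19:50748065-50748314 (minus strand), Gfap at chr10:88361662-88361911 (minus strand) and Gja1 at chr20:36302314-36302563 (plus strand). This assembly is not the Rnor_6.0 assembly on which the reads were counted. Capitals mark the nuclear factor I (NFI) motif TTGGC, or GCCAA on the other strand.
Chrdl1: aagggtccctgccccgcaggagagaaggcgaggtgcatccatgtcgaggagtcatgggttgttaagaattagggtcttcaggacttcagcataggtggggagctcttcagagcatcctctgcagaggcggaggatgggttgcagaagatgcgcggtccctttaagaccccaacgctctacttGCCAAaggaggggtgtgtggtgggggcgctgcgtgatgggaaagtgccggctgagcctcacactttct
Lcat: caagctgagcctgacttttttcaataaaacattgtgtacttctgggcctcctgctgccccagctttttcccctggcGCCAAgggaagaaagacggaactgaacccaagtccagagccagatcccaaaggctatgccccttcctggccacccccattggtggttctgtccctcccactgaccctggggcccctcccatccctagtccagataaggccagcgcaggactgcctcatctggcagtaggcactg
Gfap: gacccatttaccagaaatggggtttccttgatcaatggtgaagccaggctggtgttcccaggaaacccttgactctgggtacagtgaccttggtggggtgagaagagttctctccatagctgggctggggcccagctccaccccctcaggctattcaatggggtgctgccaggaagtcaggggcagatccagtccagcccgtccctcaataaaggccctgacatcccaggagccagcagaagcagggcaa
Gja1: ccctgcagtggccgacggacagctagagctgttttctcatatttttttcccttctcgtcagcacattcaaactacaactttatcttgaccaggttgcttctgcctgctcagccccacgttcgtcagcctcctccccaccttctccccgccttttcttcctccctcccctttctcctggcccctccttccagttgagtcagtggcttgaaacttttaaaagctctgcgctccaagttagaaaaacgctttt
Nuclear factor I proteins act in the formation of astrocytes, which is why their motif was searched, together with the SOX core AACAAT and the STAT motif TTCNNNGAA, all on both strands. Of the 35 genes, 31 had an entry in the promoter table, and 17 of these 31 (54.8%) held TTGGC, beside 40.3% of all 33465 regions of the same length. AACAAT was found in 3 of the 31 (9.68%, beside 10.3% of all regions) and TTCNNNGAA also in 3 (9.68%, beside 7.67%). The Chrdl1 and Lcat regions each held 1 match to TTGGC and the Gfap and Gja1 regions held none of the 3 motifs. These are matches of letters in a short window, not binding sites, and no value of the present data bears on them.

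**Figure D2:**
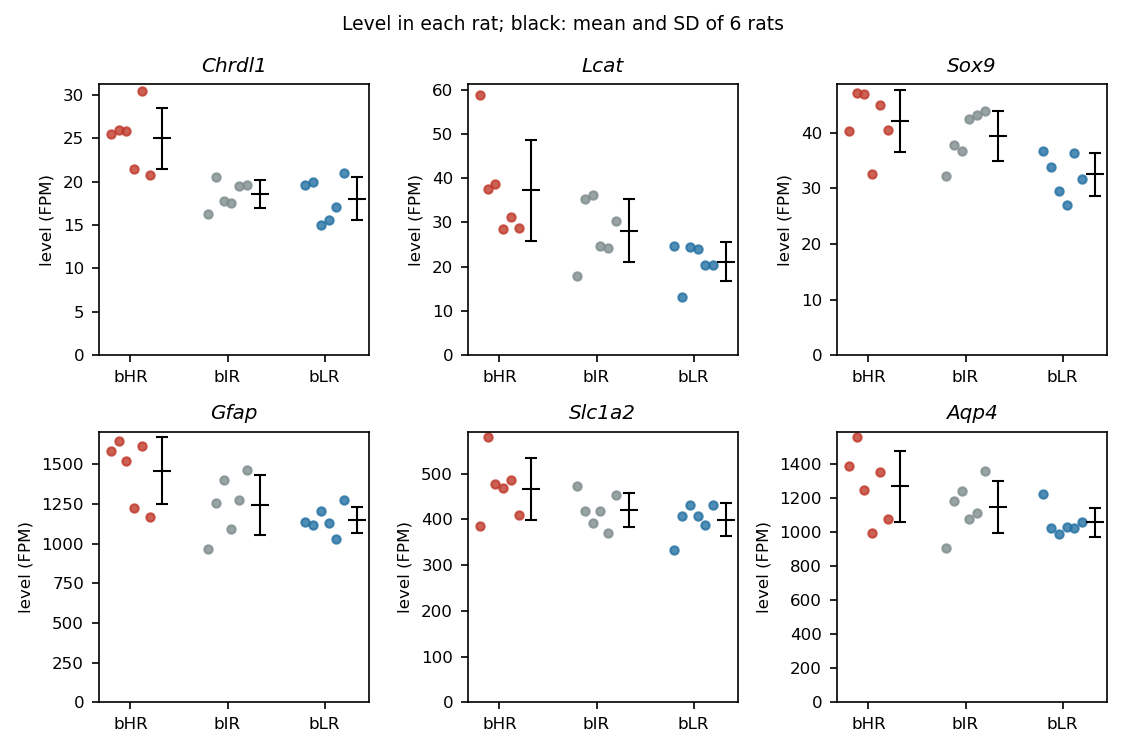
Level in FPM (y axis, from 0) of Chrdl1, Lcat, Sox9, Gfap, Slc1a2 and Aqp4 in each rat, with the mean and SD of 6 rats per line in black. For Lcat all bHR rats lie above all bLR rats, while for the other 5 genes at least 1 bHR rat lies within the bLR range.

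The remaining secreted proteins differed less. Sparcl1, a matricellular protein of the SPARC family that promotes synapse formation, was at 3349, 3905 and 4445 FPM in bHR and 3222, 3563 and 3695 in bLR (log2 difference 0.16, SE 0.08, limma adjusted p = 0.565). Clu, which encodes the chaperone and lipid carrier clusterin, had a log2 difference of 0.20 (SE 0.11), and Apoe, the main apolipoprotein of the brain, 0.09 (SE 0.08). F3, tissue factor, differed by 0.02 (SE 0.13), and Agt, the angiotensin precursor made by astrocytes, by -0.05 (SE 0.08). For Sparcl1 and Clu, 5 of the 6 bHR rats were above every bLR rat, and for Apoe 4 were. For F3 and Agt these numbers were 2 and 1. The bHR and bLR ranges overlapped for all 5 genes, and none reached an adjusted p under 0.05.

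Among the cytoskeletal and calcium-binding markers, Gfap stood out in the upper bHR rats. It was at 1169, 1553 and 1651 FPM in bHR, 965, 1266 and 1467 in bIR, and 1031, 1135 and 1278 in bLR. In bHR, HR_2, HR_10, HR_22 and HR_34 were above every bLR rat, whereas HR_26 and HR_38 lay inside the bLR range. The 1.26-fold difference between bHR and bLR did not pass (log2 difference 0.33, SE 0.10, limma adjusted p = 0.223). Vim, the intermediate filament protein vimentin, differed by 0.25 (SE 0.13), and S100b, a calcium-binding protein, by 0.22 (SE 0.13), neither passing. S100b was highest in HR_2, at 5005 FPM, and LR_48, at 4377 FPM, was above 5 of the 6 bHR rats.

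Of the transcription factors, Sox9, which drives the switch to gliogenesis and is kept in adult astrocytes, had the clearest separation. Sox9 was at 32.7, 42.8 and 47.2 FPM in bHR, 32.3, 40.2 and 43.9 in bIR, and 27.0, 32.8 and 36.8 in bLR. HR_26 was the one bHR rat inside the bLR range, and the other 5 exceeded every bLR rat. The log2 difference of 0.37 (SE 0.10, 1.29-fold) did not pass (limma adjusted p = 0.130). Without HR_26, Sox9 passed (limma adjusted p = 0.0292). Pax6, a homeodomain factor of progenitors and astrocytes, differed by 0.10 (SE 0.12), and Fabp7, a brain fatty acid binding protein of radial glia and astrocytes, by 0.04 (SE 0.10).

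Of the 5 genes of glutamate and amino acid handling, 4 had a higher mean in bHR and none passed. Slc1a2, the main astrocytic glutamate transporter (GLT-1), was at 386, 473 and 579 FPM in bHR, 369.5, 419 and 472 in bIR, and 333, 407 and 432 in bLR. HR_10 was the highest rat, and HR_2, which was the highest bHR rat for most other genes of the list, was the lowest bHR rat here. The log2 difference was 0.22 (SE 0.09, 1.16-fold, limma adjusted p = 0.418). Slc1a3, the second astrocytic glutamate transporter (GLAST), differed by 0.15 (SE 0.09), Glul, glutamine synthetase, by 0.18 (SE 0.09), and Slc25a18, a mitochondrial glutamate carrier, by 0.19 (SE 0.11). Slc7a10, the neutral amino acid exchanger Asc-1, was the exception at -0.04 (SE 0.10), with medians of 18.4 FPM in bHR and 18.2 in bLR.

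All 6 measured genes of potassium, water and ion homeostasis had a higher mean in bHR, and 3 of them reached an unadjusted p under 0.05. Aqp4, the water channel of astrocyte endfeet, was at 993, 1299 and 1554 FPM in bHR, 907, 1144 and 1355 in bIR, and 986, 1025 and 1222 in bLR. The lines overlapped, since HR_26 was at the bottom of the bLR range and LR_8 lay well above the other bLR rats. The log2 difference was 0.25 (SE 0.10, 1.19-fold, limma adjusted p = 0.430). The inward rectifier potassium channel subunits Kcnj16 (Kir5.1) and Kcnj10 (Kir4.1), which form a channel together, differed by 0.30 (SE 0.13) and 0.20 (SE 0.09), and HR_38 had the lowest bHR level of Kcnj10, at 65.4 FPM. Mlc1, an endfoot membrane protein, differed by 0.17 (SE 0.09), the sodium pump subunit Atp1b2 by 0.13 (SE 0.07) and the sodium bicarbonate cotransporter Slc4a4 by 0.10 (SE 0.09).

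None of the gap junction genes, metabolic genes and receptors passed. Gja1, connexin 43, was at 656, 889.95 and 994 FPM in bHR, 672, 889 and 998 in bIR, and 783, 885 and 907 in bLR. Its 3 medians were almost equal, and the bHR and bLR means differed by 0.02 (SE 0.10, 95% interval -0.18 to 0.22). Gjb6, connexin 30, differed by 0.12 (SE 0.08). In metabolism, Etnppl, which breaks down phosphoethanolamine, differed by 0.23 (SE 0.14) and the acyl-CoA synthetase Acsbg1 by 0.15 (SE 0.07). The other 4 metabolic genes, the glycolytic enzyme Aldoc, the metallothionein Mt3, the folate enzyme Aldh1l1 and the glycogen-targeting phosphatase subunit Ppp1r3c, had differences of 0.04 to 0.09. Ndrg2, the neurotensin receptor Ntsr2 and the phospholipase Plcd4 differed by 0.14, 0.11 and 0.09.

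The higher bHR mean was carried unevenly by the bHR rats. For each rat, the genes above their own median over the 18 rats were counted. HR_2, HR_10 and HR_22 each had 33 of the 35 genes above the median and HR_34 had 23. HR_26 and HR_38, by contrast, had 9 and 8, within the 7 to 11 of the first 5 bLR rats (LR_8, LR_16, LR_20, LR_32 and LR_44). LR_48 had 25, more than 3 of the 6 bHR rats, and among bIR rats the count ran from 4 in IR_149 to 24 in IR_158. Over all genes, 48.7% to 51.5% were above their median in any rat.

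**Figure D3:**
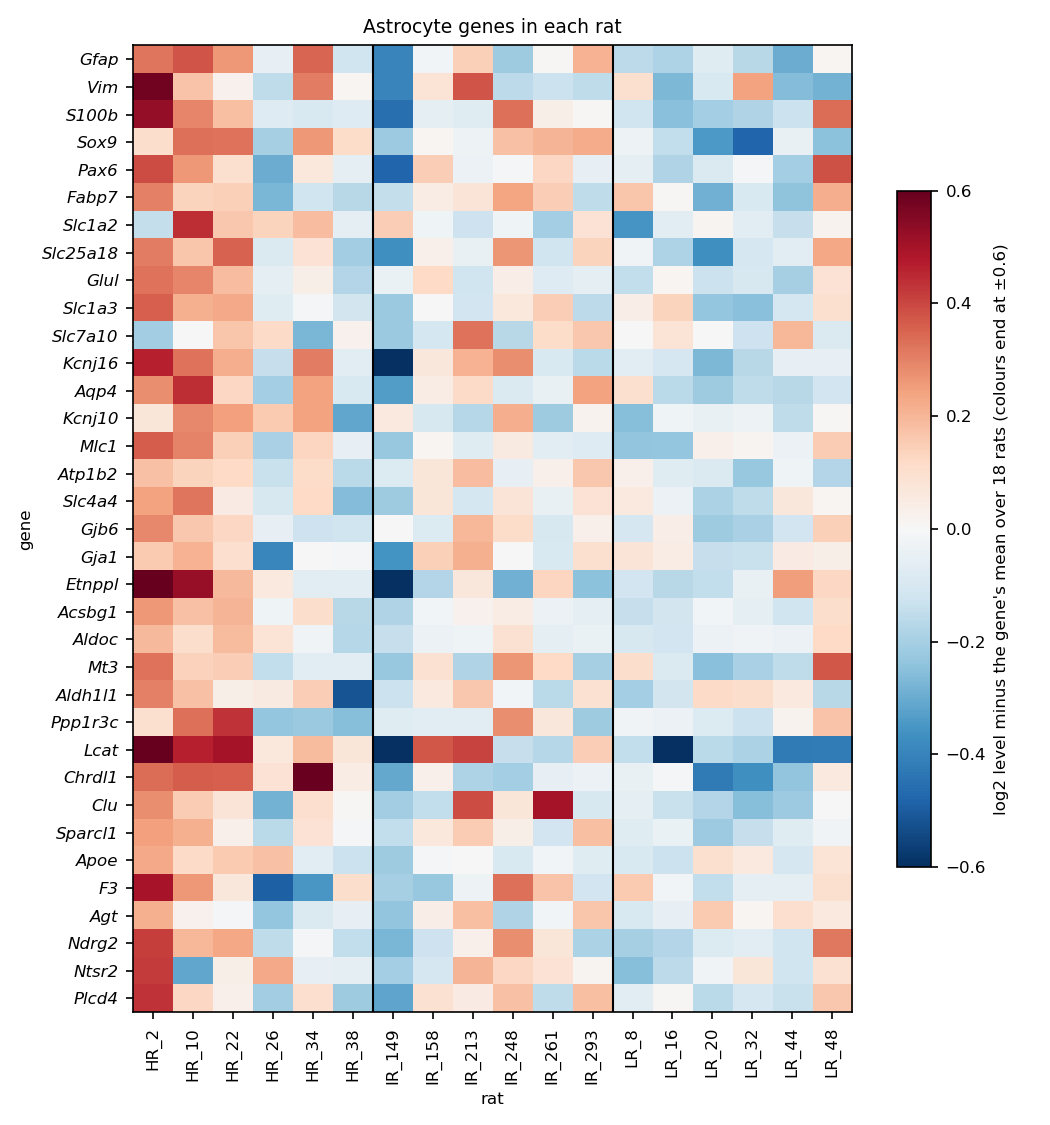
Log2 level of each of the 35 astrocyte genes (y axis) in each of the 18 rats (x axis), minus the mean of that gene over all rats; red is higher, blue lower, and colours end at 0.6 either way. HR_2, HR_10 and HR_22 are red over most genes, and IR_149, HR_26, HR_38 and the bLR rats other than LR_48 are blue over most.

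The mean log2 level over the 35 genes, taken per rat, was 7.90 ± 0.170 in bHR, 7.78 ± 0.116 in bIR, and for bLR it was 7.73 ± 0.0673 (SD, n = 6). It spanned 7.70 to 8.12 in bHR, 7.55 to 7.87 in bIR and 7.68 to 7.86 in bLR, so the lines overlapped. The spread within bHR was also wider gene by gene. Of the 35 genes, 28 had their largest SD in bHR (80%), beside 43.7% of the 10088 genes at least as abundant as the lowest of them, and the median SD of the 35 genes was 0.216 in bHR, 0.172 in bIR and 0.119 in bLR on the log2 scale. No test was made of this spread.

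Neuronal markers were mostly lower in bHR, though none passed. Of 14 neuronal markers, 13 had a lower mean in bHR than in bLR, with a median log2 difference of -0.15, 0 passed with limma, and 3 reached an unadjusted p under 0.05, all lower in bHR. Their summed level was 6176 to 8315 FPM in bHR and 7694 to 8406 FPM in bLR. HR_2, HR_10 and HR_22 had 1, 2 and 1 of the 14 markers above the median of the 18 rats, whereas HR_26 had 12. LR_48, the bLR rat with the most astrocyte genes above their median, had 3. Not every rat showed opposite counts. IR_158 had 12 of the 14 markers and 24 of the 35 astrocyte genes above the median, and HR_38 had 8 of the 14 and 8 of the 35. With the mean of the neuronal markers as a covariate, 26 of the 35 astrocyte genes were above 0, their median log2 difference was 0.08, and Chrdl1 differed by 0.43 (limma adjusted p = 0.0522). Oligodendrocyte markers were above 0 in 10 of 12 cases (median 0.09) and microglial markers in 1 of 13 (median -0.14), where the complement gene C1qb was lower in bHR (log2 difference -0.42, limma adjusted p = 0.0382). Endothelial markers were above 0 in 3 of 10 cases (median -0.21) and ependymal markers in 9 of 10 (median 0.24), with 0 passing in either list and 5 and 0 at an unadjusted p under 0.05. With the mean of choroid plexus markers as a covariate, or without the 4 libraries with high Ttr, 33 of the 35 astrocyte genes were above 0, with medians of 0.15 and 0.19, and Chrdl1 passed. Of the bHR and bLR rats, only HR_38 was among those 4 libraries. Over all genes, 49.5% were above 0 between bHR and bLR and 0.445% passed. At an unadjusted p under 0.05, 4.21% were higher and 5.16% lower in bHR. The part of oligodendrocyte, microglial, endothelial and ependymal cells in the astrocyte values was not tested.

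**Figure D4:**
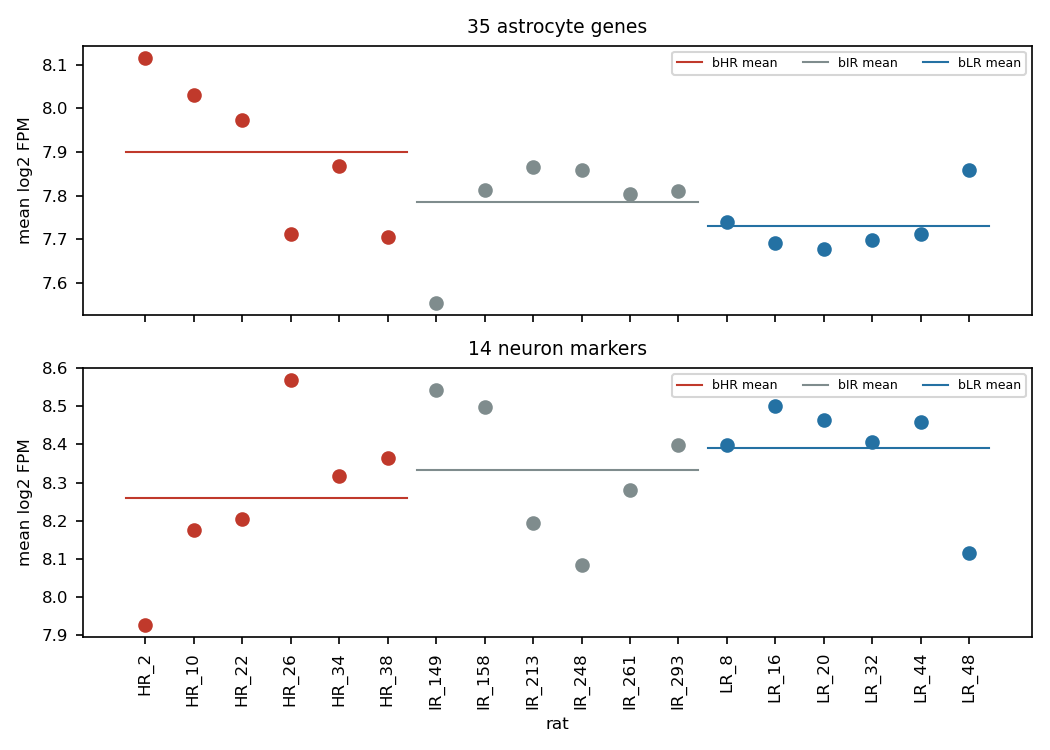
Mean log2 FPM (y axis) of the 35 astrocyte genes (upper) and of 14 neuronal markers (lower) in each rat (x axis), with horizontal lines at the line means. HR_2 is highest for the astrocyte genes and lowest for the neuronal markers, while HR_26 has the highest neuronal mean and an astrocyte mean within the bLR range.

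In the fit reported, most of the 35 genes had a mean in the cross between those of the parent lines. The bIR mean lay between the bHR and bLR means for 24 of the 35 genes (68.6%), beside 36.9% of all genes. Against bHR, 30 of the 35 genes were higher in bHR (median log2 difference 0.12, beside 47.6% of all genes above 0), 0 passed with limma, and 4 reached an unadjusted p under 0.05, Chrdl1, Etnppl, Gfap and Lcat. In that comparison 0.00957% of all genes passed in either direction, and 2.67% were higher in bHR at an unadjusted p under 0.05. Against bLR, 8 genes were higher and 27 lower in bLR (median -0.04, beside 49.4% of all genes above 0), 0 passed, and 2, Sox9 and Lcat, were lower in bLR at an unadjusted p under 0.05. Of all genes 0% passed there, and 3.76% were lower in bLR at an unadjusted p under 0.05. Both comparisons use the same bIR rats. Without the 4 libraries with Ttr above 11, 20 of the 35 genes were higher in bLR than in bIR. The bIR rats left were then IR_149, IR_158 and IR_293. Of all 18 rats, IR_149 had the lowest mean log2 level over the 35 genes. The number of genes between the means was not recounted in that setting. Without IR_149 the median difference of bHR from bIR was 0.050, and without HR_2 it was 0.072; the genes higher in bHR then numbered 26 and 24.

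Individual genes took different positions in the cross. Chrdl1 in bIR was at the bLR level: every bIR rat was below every bHR rat, which held for 1 of the 35 genes and 0.129% of all genes, and the bHR minus bIR difference was 0.42 (SE 0.10, limma adjusted p = 0.450). Sox9 in bIR was nearer to bHR, with bLR minus bIR at -0.28 (SE 0.10, limma adjusted p = 0.598) and bHR minus bIR at 0.09 (SE 0.10). Lcat lay midway on the log2 scale, 0.40 below bHR and 0.40 above bLR (SE 0.19 each). Atp1b2 resembled bHR in its mean level, at -0.15 (SE 0.07) for bLR minus bIR and -0.01 for bHR minus bIR. Mlc1 and Kcnj16 differed from bHR by 0.18 (SE 0.09) and 0.26 (SE 0.13), and Gfap by 0.23 (SE 0.10), none of them passing.

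Against the mean of bHR and bLR, 12 of the 35 genes were higher and 23 lower in bIR (median -0.03, beside 52.3% of all genes above 0). There, 0 passed with limma beside 0.00478% of all genes, and 2 reached an unadjusted p under 0.05, both lower in bIR, beside 2.62% of all genes. Etnppl was one of them, at 7.45, 10.1 and 12.8 FPM in bIR, 11.2, 12.8 and 18.1 in bHR, and 10.4, 11.1 and 13.9 in bLR, and IR_149 and HR_2 were the extremes. It was 0.29 below the mean of the other lines on the log2 scale (SE 0.12, limma adjusted p = 0.882). Chrdl1 was the other, at -0.19 (SE 0.09). Clu had its highest levels in IR_261, at 2010 FPM, and IR_213, at 1863 FPM, beside at most 1725 FPM in any bHR rat, and both of these libraries were among those with Ttr above 11. Clu was 0.13 above the mean of the other lines (SE 0.10), and without the 4 libraries with high Ttr its value was -0.11.

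**Figure D5:**
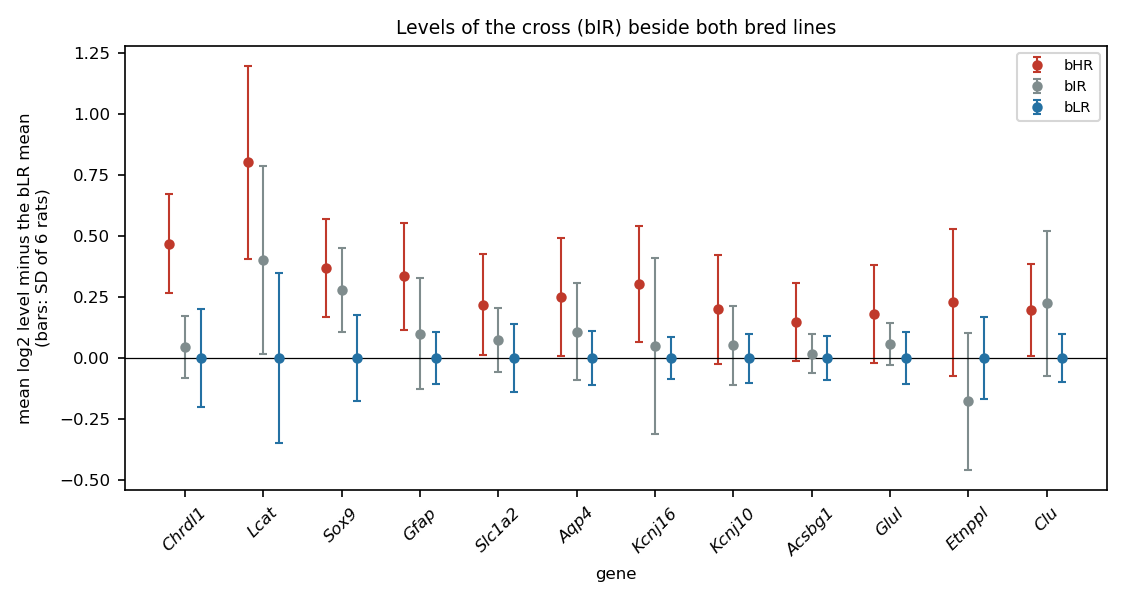
Mean log2 level minus the bLR mean (y axis) for 12 astrocyte genes (x axis) in bHR, bIR and bLR, with bars for the SD of 6 rats. Chrdl1 in bIR lies at the bLR level, Sox9 nearer to bHR, Lcat midway, and Etnppl below both other lines.

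The labels also give, for each rat, the percent of maze time passed in the open arms (elevated plus maze), a measure of anxiety-like behaviour, with a mean of 35.5% for bHR, 16.2% for bIR and 8.28% for bLR rats. A slope on this percentage, fitted beside the 3 line means, asks whether a gene follows behaviour within lines. With limma, 0 of the 35 genes passed, as did 0% of all genes, and 3 of the 35 reached an unadjusted p under 0.05, beside 4.34% of all genes in either direction. Gja1 had a slope of -0.08 on the log2 scale per 10 percentage points (SE 0.03, limma adjusted p = 0.999). Agt had a slope of -0.06 (SE 0.02) and Kcnj10 of 0.07 (SE 0.03) per 10 percentage points. Per 1 percentage point, the slope of Kcnj10 was 0.0071, but 0.0036 without HR_38 and 0.00071 without the 4 libraries with high Ttr. That of Gja1 was -0.0081, but -0.0047 without HR_26 and -0.013 without those 4 libraries. The slope was negative for 25 of the 35 genes and above 0 for 50.5% of all genes. The maze was run at P65 to P75 in bIR and at the later age of P160 to P167 in the other lines.

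A further list of astrocyte genes, not among the 36, was compared in the same fit and the same rats. It too was drawn up with earlier results of these data known. Of 44 measured, 39 had a higher mean in bHR than in bLR (median log2 difference 0.12), and 2 passed, both higher in bHR. The mean over this list was highest in HR_22, HR_2, HR_10 and HR_34. These rats were also highest for the 35 genes, so the lists are not separate observations. Over all genes, 49.5% were above 0 and 0.191% passed as higher in bHR. Mfge8, a secreted bridging protein for the uptake of cell debris, was at 167.4, 170.2 and 188 FPM in bHR, 151, 162 and 166.6 in bIR, and 119, 130.03 and 141 in bLR. The lines did not overlap in any pair, and the bIR rats lay in the upper part of the gap, with bLR minus bIR at -0.30 (SE 0.05, limma adjusted p = 0.0686). Of all genes, 0.407% were higher in bHR than in bLR without overlap, and 0.129% were higher in bHR than in bIR. For bLR below bIR without overlap, the number was 32 of 20909 genes. Aldh1a1, which makes retinoic acid from retinaldehyde, was at 57.6, 69.9 and 91.2 FPM in bHR, 43.2, 51.7 and 66.9 in bIR, and 35.8, 40.9 and 57.8 in bLR (bHR minus bLR 0.74, SE 0.13, limma adjusted p = 0.00523). At an unadjusted p under 0.05, 12 of the 44 were higher and 3 lower in bHR, beside 4.21% and 5.16% of all genes. The scavenger receptor Scara3 was one of the lower ones (-0.29, SE 0.08, limma adjusted p = 0.166).

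Genes of reactive astrocytes and of neural progenitors were more mixed in direction. Of 31 measured genes of reactive astrocytes, 18 were above 0 between bHR and bLR (median 0.07), 0 passed with limma, and at an unadjusted p under 0.05, 4 were higher and 2 lower. Over all genes, 49.5% were above 0, and 4.21% were higher and 5.16% lower at that threshold. Cd44, a hyaluronan receptor, differed by 0.33 (SE 0.12), and Ptgs2, cyclooxygenase 2, by -0.44 (SE 0.12). Fkbp5 differed by -0.29 (SE 0.12) and Emp1 by 0.41 (SE 0.18, limma adjusted p = 0.461). For Emp1 every bHR rat was above every bLR rat, as for 0.407% of all genes. Of 13 genes of neural progenitors, 5 were above 0 (median -0.07), 0 passed with limma, and 1 was higher and 1 lower at an unadjusted p under 0.05. The higher one was Sox2, a stem cell factor kept in astrocytes, at 81.4, 117 and 138 FPM in bHR and 71.9, 85.0 and 102 in bLR (log2 difference 0.40, SE 0.11, limma adjusted p = 0.131). The lower one was the proliferation marker Mki67, at 1.68, 3.19 and 3.57 FPM in bHR and 3.90, 4.53 and 4.56 in bLR, where every bHR rat was below every bLR rat, as for 0.502% of all genes (log2 difference -0.69, SE 0.17, limma adjusted p = 0.0924).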

How the data were processed

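Whole hippocampus of 18 rats was sequenced as stranded polyA libraries, paired-end, per the labels' protocols. Per the series' design text and the submitters' processing notes, reads were aligned with Subread to Rnor_6.0 and counted with featureCounts on Ensembl genes (version 81), and genes were filtered at 10 counts in 4 samples. The authors deposited log2 FPM (fragments scaled by 1 constant per library) from voom (limma, R 3.2.2), with an offset that the values show to be 0.5 reads. The sources used here give no version of Subread, featureCounts or the authors' limma. With 1 constant per library, 100% of the 376362 values came within 0.02 of whole reads, which gave the depths of 31.1 to 66.6 M reads. The constants were 0.974 to 1.038 times the read totals, so the scaling was not by read total alone. Of the genes, 1258 did not meet the stated filter in these reads.

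The fit used limma 3.58.1 in R 4.3.3 on the log2 values: 3 line means over all 18 rats, empirical Bayes with a trend, two-sided tests, Benjamini-Hochberg adjustment over 20909 genes within each of 4 contrasts, threshold 0.05. The slope on open-arm time was added in a further fit. The unit required no count model, and none was used. The 36 genes, the other lists, the tests and the motifs were chosen with earlier results of these data known. The genes chosen for description were the 6 of smallest p in each contrast, with Gfap, Aqp4 and Slc1a2, and up to 4 of each other list. Some of these are given with fewer values, and some are not named. Promoters came from a RefSeq table (GRCr8), which lacked Sox9, Clu, F3 and Agt. Alternatives covered filters, scaling, offsets, variance models, weights, covariates and leaving out each rat. The neuronal covariate was added after seeing the data. Fits were also run on simulated reads, drawn independently for each gene with the same dispersion for all genes. These held no variation shared by genes within a rat, so they cannot show how such sharing affects the fits.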

Additional observations from a re-analysis of the deposited data

Results flagged for a closer look

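In groups of 6 rats, the highest or the lowest rat of 9 of 105 combinations of gene and line stood apart by more than the critical value of Dixon's test at the 95% level. Chance gives about 1 in 20 such groups, and the genes share rats, so the 9 are not independent. LR_48 was the high bLR rat for 3 genes: S100b at 4380 FPM, where the next bLR rat had 3190, Pax6 at 19.1 FPM (next 14.6), and Ndrg2 at 2730 FPM (next 2090). HR_38 was the low bHR rat for Kcnj10 at 65.4 FPM (next 85.3) and Aldh1l1 at 20.1 FPM (next 29.5). Gja1 in HR_26 was at 656 FPM (next 852), and Pax6 in IR_149 at 10.6 FPM (next 14.2). Aqp4 was high in LR_8 at 1220 FPM (next 1060), and Lcat was low in LR_16 at 13.1 FPM (next 20.3).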

How the results depend on the processing

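Between bHR and bLR, 1 of the 35 genes passed in the fit reported. The number was 0 with median centring, quantile normalization, no variance trend, the log2 read total as a covariate, the neuronal marker mean as a covariate, or only the 12 rats compared, and 4 with array weights (Gfap, Sox9, Lcat and Chrdl1). Leaving out each rat gave 0 to 3. Chrdl1 kept its direction throughout, at 0.41 to 0.56 with a limma adjusted p of 0.00595 to 0.110, and passed in 9 of 15 settings and 8 of 18 fits without 1 rat. The number of the 35 genes above 0 was 26 to 33 over 8 settings and 30 to 34 without 1 rat, and their median 0.08 to 0.19. Over all genes, 93 passed, 41 with the read total as a covariate, 194 with array weights, and 46 to 138 without 1 rat. In the comparison of bHR with bIR the same number was 2, and 2 to 6 over settings; in that of bLR with bIR it was 0, and 0 to 4.

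Values that rest on the bIR rats moved more. Genes higher in bHR than in bIR numbered 30 (median 0.12), and 24 to 34 over settings and over fits without 1 rat, with medians over the 35 genes of 0.058 to 0.19 and 0.050 to 0.15. Genes higher in bLR than in bIR numbered 8, but 15 with median centring, 17 with the neuronal covariate, 20 without the 4 libraries with Ttr above 11, and 2 to 14 without 1 rat (2 without IR_149, 14 without IR_248), and the median of all 35 genes, -0.045, ran from -0.045 to 0.029 over settings. Genes above the mean of the other lines in bIR numbered 12, but 4 without those 4 libraries, and 6 to 22 without 1 rat (6 without IR_213, 22 without IR_149), with medians over the 35 genes of -0.053 to 0.020. Clu reversed without those 4 libraries, to 0.011 for bLR minus bIR and -0.11 for bIR minus the mean. In that setting IR_149, IR_158 and IR_293 were the only bIR rats. The open-arm slopes of Gja1, Agt and Kcnj10 kept their signs, and none passed in 9 settings or without 1 rat. The cause of these changes was not tested. No paired analysis was possible because the lines are made up of different animals and the labels give no matching between them. Batch, lane and litter are not named in the labels and could not be entered in any fit.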

Other observations

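Slc39a12, a zinc transporter of astrocytes from the further list, took values in separate ranges within every line. In bHR, 5 rats lay between 27.7 and 56.5 FPM and HR_38 was at 5.78. In bIR, IR_149, IR_213 and IR_248 lay between 24.3 and 41.6 FPM, and IR_158, IR_261 and IR_293 between 4.16 and 5.97. In bLR, 5 rats lay between 2.83 and 5.08 FPM and LR_48 was at 31.4. No rat of the 18 fell between 5.97 and 24.3 FPM. The difference between bHR and bLR, 2.50 on the log2 scale (SE 0.65), did not pass (limma adjusted p = 0.103). Because the ranges were noticed in the data, they are given as values only.

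Markers of dentate granule neurons had a lower mean in bHR than in bLR in 8 of 9 cases (median log2 difference -0.19), with 0 passing with limma and 3 at an unadjusted p under 0.05. Over all genes, 49.5% were above 0, and 5.16% were lower in bHR at that threshold. The 3 markers were Plk5 (-0.71, SE 0.21), C1ql2 (-0.62, SE 0.19) and Dsp (-0.65, SE 0.27). Of the endothelial markers, Tek had the smallest p (-0.39, SE 0.09, limma adjusted p = 0.0640).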
